A study of Mus musculus with 16 samples.

Results

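The cytosolic ribosomal proteins were examined as a family of 87 genes in ventricular myocytes of mice with and without the transgene B3AR-Tg. Members were the genes whose symbol begins with Rpl or Rps and a digit, with Rpsa, Rplp0, Rplp1 and Rplp2 added, pseudogenes marked "-ps" and S6 kinases left out, and a mean count of at least 10 over all animals. The name rule found 94 genes, and 87 of the 35682 genes in the table remained after the count minimum. The 7 genes below it (Rpl39l, Rps3a3, Rpl10l, Rps3a2, Rps23rg1, Rpl6l and Rpl32l) had mean counts of 0 to 7.0. All 87 members passed the filter on low counts and were among the 10945 genes tested. By name, 51 members belong to the large (60S) and 35 to the small (40S) ribosomal subunit. The remaining one, Rps19bp1, meets the name rule but encodes a binding partner of Rps19 and not a ribosomal protein.

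Cytosolic ribosomes translate the messenger RNAs of the nucleus, and each is built from ribosomal RNA and a nearly fixed set of proteins that are needed in equal numbers. The messenger RNAs of these proteins typically start with a run of pyrimidines, the terminal oligopyrimidine (TOP) motif, through which the mTORC1 kinase and the RNA-binding protein Larp1 regulate their translation and stability together. In growing hearts the making of ribosomes is part of hypertrophy. In heart and skeletal muscle some ribosomes carry Rpl3l, a muscle paralog, in place of Rpl3.

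The study compared 8 wild-type (WT) mice with 8 B3AR-Tg littermates. All 16 had undergone transverse aortic constriction (TAC), which narrows the aorta and loads the left ventricle with pressure, and all were taken 9 weeks later. Both groups therefore carry the pressure load, and no unoperated animals enter the comparison. Myocytes were freed by Langendorff perfusion, kept on plates for 1 h and lysed, and stranded total RNA libraries were made from 500 ng of ribosome-depleted RNA. Age, sex, strain and the promoter of the transgene were not given in the sources used here. The labels give each library as a biological replicate, and libraries are named here by genotype and replicate number.

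Total counts ranged from 5985335 to 14365864 per library. No pair of libraries within a genotype agreed within sampling noise (56 pairs, chi-square per gene 6.03 to 58.9). Mouse Adrb3, the gene of the receptor after which the transgene is named, had 0 to 4 counts in WT and 0 to 3 in B3AR-Tg libraries, so its row did not check the genotype labels. The myocyte markers (8 of 8 detected) summed to 63268 to 88300 CPM, counts scaled to a common library size, in WT and 68475 to 104611 in B3AR-Tg libraries. Of these 6 were higher in B3AR-Tg animals and 1 passed the test, Ryr2, the calcium release channel (log2 fold change 0.46, adjusted p = 0.0359, edgeR). Markers of other cells were far lower. All 6 tested fibroblast markers were lower in B3AR-Tg animals and 4 passed the test (summed CPM 38.2 to 119.3 in WT, 11.04 to 46.5 in B3AR-Tg). All 7 endothelial markers were lower and 2 passed (78.7 to 125.9 against 36.9 to 149.9). Of 6 mural markers 5 were lower and none passed (87.2 to 161.8 against 47.4 to 142.3). Of 9 leukocyte markers 2 were abundant enough to test, both were lower, neither passed, and Cd3e had no count in any animal (4.39 to 14.6 against 0.795 to 6.56). None of 3 erythroid markers was abundant enough to test. In bulk RNA, fewer cells of a type and less RNA per cell cannot be told apart.

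Most ribosomal protein transcripts stood slightly lower in B3AR-Tg than in WT myocytes, and a few passed the test. The fitted log2 fold change (B3AR-Tg minus WT) was below 0 for 78 of 87 members, or 89.7%, against 48.9% of all tested genes. The median member stood at -0.15 (quartiles -0.23 and -0.08) and the median of all tested genes at 0.01. With edgeR's quasi-likelihood test and Benjamini-Hochberg adjustment over all tested genes, 7 members passed an adjusted p of 0.05, or 8.05% of the family. All 7 were lower: Rpl35, Rps26, Rpl3, Rpl21, Rpl22, Rpl4 and Rpl17. Over all tested genes 4.91% passed, with 2.88% lower and 2.03% higher. At an unadjusted p below 0.05 there were 34 members lower and 1 higher, against 10.6% and 8.71% of all tested genes. The count of 7 depended on single animals. It was 2 without WT 1, WT 4 or B3AR-Tg 5, 3 without WT 6, WT 8, B3AR-Tg 1, B3AR-Tg 7 or B3AR-Tg 8, 4 without WT 5 or B3AR-Tg 6, and 12 without B3AR-Tg 3. Without B3AR-Tg 6 the members past the threshold included Rpl3l, which was higher. Calls over all tested genes moved as well, from 537 to 385 without WT 1, 272 without WT 4 and 277 without B3AR-Tg 5. They were 612 without B3AR-Tg 7 and 605 without B3AR-Tg 3. The median of the members stayed between -0.20 and -0.14 when any single animal was left out.

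**Figure D1:**
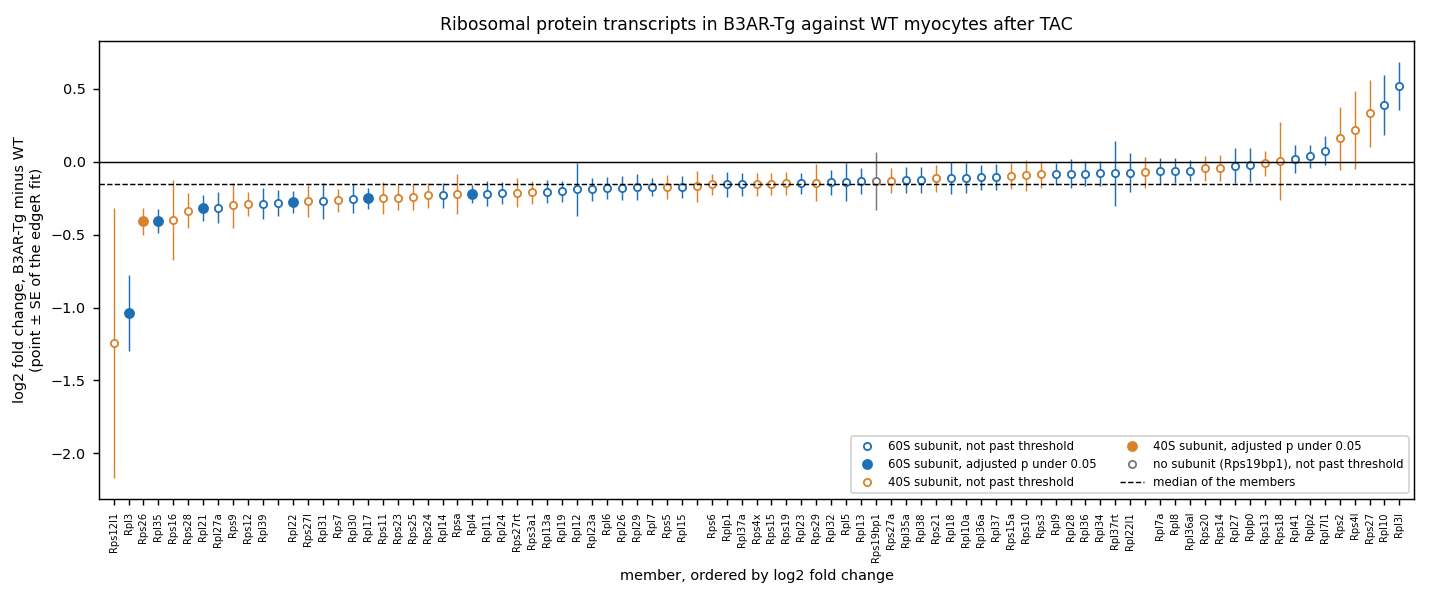
Log2 fold change of each of the 87 members, B3AR-Tg minus WT (y axis, point ± SE of the edgeR fit), ordered from lowest to highest (x axis), with blue for 60S, orange for 40S and filled points for members past an adjusted p of 0.05; some members are not labelled. Most points lie between 0 and -0.3, the median (dashed) is -0.15, and Rpl3 and Rpl3l stand near the opposite ends.

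The subunits had similar medians, and the difference between them was not tested. The grouping is by name and includes rows annotated as pseudogenes. The median was -0.15 over the 51 members named for the 60S subunit, of which 46 were below 0. It was -0.16 over the 35 named for the 40S subunit, of which 31 were below 0. Of the 60S members 6 passed the threshold (11.8%), and of the 40S members 1 did (2.86%). All were lower, against 2.88% of all tested genes called lower. For 25 members all 8 B3AR-Tg animals were below the WT median, and for another 23 members 7 of 8 were. The share of all tested genes with such counts was not computed, so these counts have no background beside them. Complete separation of the genotypes was seen for Rpl4 alone among the members, against 0.247% of all tested genes that separated in that direction.

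The members' level varied among the animals of a genotype. The members took 0.969% ± 0.0284 (SD, n = 8) of all counts in WT and 0.921% ± 0.0811 (SD, n = 8) in B3AR-Tg libraries. The highest share of all 16, 1.09%, was in a B3AR-Tg animal, replicate 3, and the other B3AR-Tg libraries had 0.840% to 0.950%. In WT libraries the share ran from 0.935% to 1.02%. Mitochondrially encoded transcripts and Gm20594 take up a large and variable part of these libraries. With those left out of the total, the shares were 1.602% ± 0.122 (SD, n = 8) and 1.46% ± 0.147 (SD, n = 8). Summed over the members, the level scaled by trimmed mean of M values (TMM) was 10005 ± 716 CPM (SD, n = 8) in WT and 8974 ± 881 (SD, n = 8) in B3AR-Tg animals.

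Counting members below their own mean over the 16 animals shows which animals these were. In WT animals 7 to 40 members were below it, apart from replicate 2 with 71. In B3AR-Tg animals 56 to 80 were below it, apart from replicate 2 with 32 and replicate 3 with 18. WT 2 also had the highest sum of fibroblast markers, 119.3 CPM, and B3AR-Tg 2 the lowest, 11.04 CPM. B3AR-Tg 3 had 21.6 CPM of fibroblast markers, within the range of the other B3AR-Tg animals. The part of fibroblast RNA in the members' difference was not tested beyond a covariate fit. In that fit, with a score of the non-myocyte markers as the covariate, 83 members were below 0, the median was -0.28, and 1 member passed the threshold, while 25 of all tested genes passed in place of 537. The score itself differed by genotype, at 0.40 ± 0.28 in WT and -0.40 ± 0.56 in B3AR-Tg animals (log2, SD, n = 8 each). The fit therefore cannot fully separate the score from genotype.

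**Figure D2:**
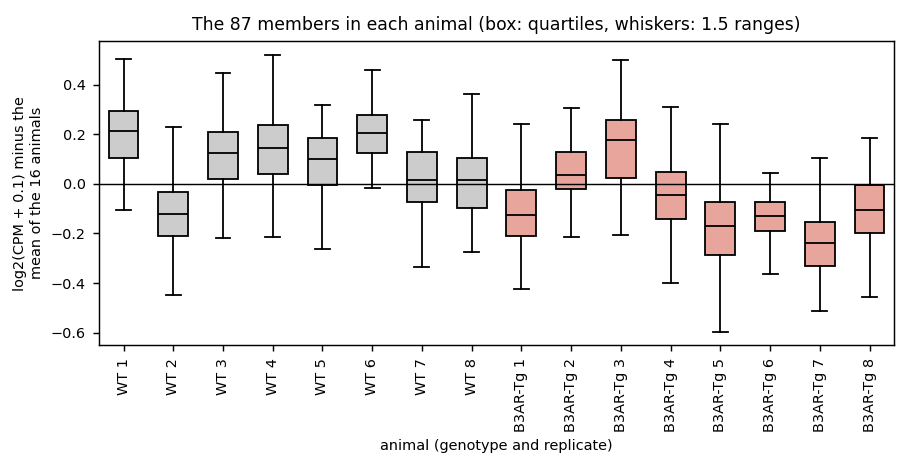
Log2(CPM + 0.1) of the 87 members in each animal, minus each member's mean over the 16 animals (y axis), as boxes with quartiles for the 8 WT (grey) and 8 B3AR-Tg (red) animals (x axis). B3AR-Tg 2 and 3 lie with the WT animals and WT 2 with the B3AR-Tg animals, where 71 members were below their mean.

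Among the members past the threshold, Rpl35, Rpl4 and Rpl17 sit around the tunnel through which the new protein chain leaves the large subunit. Rpl35 was 134.8, 106.0, 110.3, 116.5, 110.1, 120.03, 116.8 and 99.9 CPM in WT 1 to 8 and 78.4, 100.5, 100.7, 90.6, 70.5, 89.0, 78.6 and 81.8 CPM in B3AR-Tg 1 to 8. WT 8 alone fell below the 2 highest B3AR-Tg animals. The fold change was -0.41 ± 0.08 on the log2 scale (SE, adjusted p = 0.00931, edgeR), and Rpl35 passed the threshold when any single animal was left out.

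Rpl4 was the most abundant of the 7, with a mean of 330.6 ± 12.6 CPM (SD, n = 8) in WT and 283.7 ± 18.6 (SD, n = 8) in B3AR-Tg animals. The lowest, median and highest values were 314.1, 330.3 and 351.2 CPM in WT and 256.9, 282.8 and 308.2 CPM in B3AR-Tg animals, with no overlap. The fold change was small, -0.22 ± 0.06 (SE, adjusted p = 0.0431, edgeR), and the call was kept in 2 of the 16 fits that leave out an animal. Rpl17 had a median of 137.7 CPM (115.2 to 156.4) in WT and 115.0 CPM (104.9 to 127.3) in B3AR-Tg animals. Its fold change was -0.25 ± 0.07 (SE, adjusted p = 0.0460, edgeR), a call that was likewise kept in 2 of 16 such fits, and every B3AR-Tg animal was below the WT median.

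Rps26, a small-subunit protein that contacts the messenger RNA where it leaves the ribosome, was the one 40S member past the threshold. Its values were 55.3, 48.2, 48.8, 46.8, 50.6, 53.8, 43.0 and 47.4 CPM in WT 1 to 8 and 31.7, 42.4, 42.4, 46.6, 31.7, 38.7, 31.9 and 32.4 CPM in B3AR-Tg 1 to 8. A single B3AR-Tg animal, replicate 4, reached into the WT range. The fold change was -0.41 ± 0.09 (SE, adjusted p = 0.0158, edgeR) and passed whichever animal was left out. With the non-myocyte score as a covariate it stood at -0.51 and did not pass (adjusted p = 0.102, edgeR). In that fit 25 of all tested genes passed.

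Rpl21, a 60S protein, had a median of 168.4 CPM (139.4 to 198.0) in WT and 133.4 CPM (121.5 to 164.7) in B3AR-Tg animals, a fold change of -0.32 ± 0.09 (SE, adjusted p = 0.0414, edgeR). Rpl22, an RNA-binding 60S protein that mice can live without, had a median of 108.5 CPM (98.1 to 127.0) against 90.4 CPM (77.1 to 101.3), a fold change of -0.28 ± 0.08 (SE, adjusted p = 0.0420, edgeR). The groups overlapped for both genes, and all 8 B3AR-Tg animals were below the WT median. Rpl21 kept its call in 7 and Rpl22 in 6 of 16 fits that leave out an animal.

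**Figure D3:**
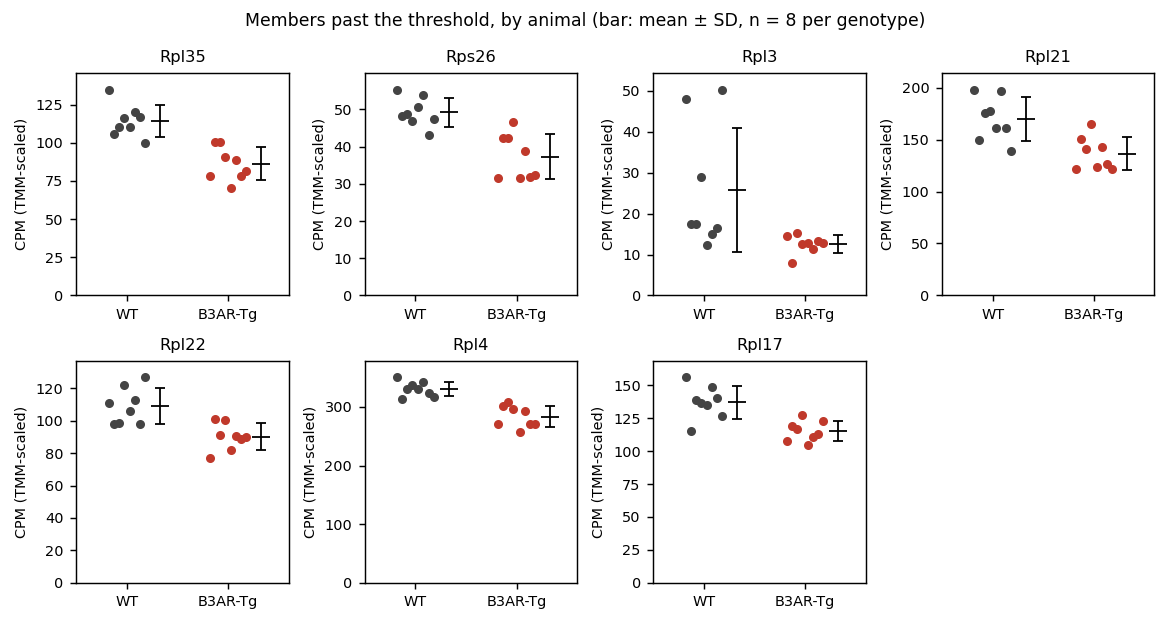
TMM-scaled CPM (y axis, from 0) of the 7 members past the threshold in each of 8 WT (grey) and 8 B3AR-Tg (red) animals, with bars for mean ± SD. Rpl4 is the one member whose groups do not overlap, and for Rpl3 the WT values spread from 12.4 to 50.3 CPM.

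Other members lay just outside the threshold. Rps12, a 40S protein, was at -0.29 ± 0.08 (SE, adjusted p = 0.0504, edgeR) and Rps7, a 40S protein that can bind Mdm2, at -0.27 ± 0.08 (adjusted p = 0.0631). Among all members, 80 did not pass.

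Rpl3 had the largest difference among the members past the threshold. Rpl3 is a core protein of the 60S subunit that reaches toward the site of peptide bond formation. Its row held 48.1, 17.4, 17.6, 29.0, 12.4, 15.004, 16.5 and 50.3 CPM in WT 1 to 8 and 14.5, 7.9, 15.3, 12.7, 12.9, 11.4, 13.2 and 12.8 CPM in B3AR-Tg 1 to 8. WT 1, 4 and 8 were high, and the other 5 WT animals, at 12.4 to 17.6 CPM, were near the B3AR-Tg range. The fitted fold change was -1.04 ± 0.26 (SE, adjusted p = 0.0245, edgeR). The adjusted p was 0.0545 without WT 1, 0.0522 without WT 4, 0.0535 without WT 8 and 0.0507 without B3AR-Tg 5.

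The Rpl3 row does not hold all reads of that sequence. In GENCODE M21, a mouse annotation on GRCm38, Rpl3 lies at chr15:80077791-80091868 on the minus strand and Rpl3l at chr17:24727820-24736143 on the plus strand, both as protein-coding genes. The processed pseudogene Rpl3-ps1 differs from the coding sequence of Rpl3 by 2 mismatches over 1209 bases, and the pseudogene rows held 69.4% of the counts of Rpl3 and its copies together. The coding sequence of Rpl3l matches that of Rpl3 at 73.2% of aligned positions, so its reads are easier to tell apart. The first 120 coding bases from the same annotation show the difference, with capitals for bases that differ from Rpl3.
Rpl3: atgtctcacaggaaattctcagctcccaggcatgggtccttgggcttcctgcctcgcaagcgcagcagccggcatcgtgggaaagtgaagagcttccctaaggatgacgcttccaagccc
Rpl3-ps1: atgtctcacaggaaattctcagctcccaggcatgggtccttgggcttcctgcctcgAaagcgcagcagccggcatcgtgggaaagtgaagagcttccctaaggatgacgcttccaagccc
Rpl3l: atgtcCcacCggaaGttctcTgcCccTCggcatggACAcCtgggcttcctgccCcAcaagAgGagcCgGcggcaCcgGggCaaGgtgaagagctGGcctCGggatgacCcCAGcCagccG
Over these bases Rpl3-ps1 has 1 and Rpl3l 31 mismatches to Rpl3.

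With the near-identical copies added, Rpl3 was lower in every B3AR-Tg animal than in any WT animal, a separation that 0.247% of all tested genes showed on their own rows. The sums were 75.3, 69.3, 63.1, 117.0, 56.9, 61.3, 64.7 and 182.4 CPM in WT 1 to 8 and 42.8, 32.0, 49.4, 41.9, 33.1, 34.5, 43.9 and 33.6 CPM in B3AR-Tg 1 to 8. The fold change of the sum was -1.15 ± 0.20 (SE, adjusted p = 0.00410, edgeR on the pooled table, an alternative chosen after seeing the data). The row of Rpl3 and the rows of its copies split the sum differently from animal to animal: in WT 1 the copies held 27.2 CPM, less than Rpl3 itself, and in WT 2 they held 51.9 CPM, more than it.

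Rpl3l, the muscle paralog that takes the place of Rpl3 in the ribosome, lay in the other direction. It was 59.7, 54.6, 76.6, 37.9, 58.2, 52.8, 62.6 and 26.9 CPM in WT 1 to 8 and 64.4, 81.1, 74.0, 95.2, 101.5, 51.5, 78.5 and 69.5 CPM in B3AR-Tg 1 to 8. In 7 of 8 B3AR-Tg animals Rpl3l was above the WT median of 56.4 CPM. The fold change was 0.52 ± 0.17 (SE) and missed the threshold (adjusted p = 0.0768, edgeR). The adjusted p was 0.0319 without WT 3 and 0.0463 without B3AR-Tg 6. It was 0.0417 with DESeq2 and 0.0446 with library size as the only scaling. Of the 87 members Rpl3l had the highest fold change and was the one that was higher at an unadjusted p below 0.05.

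The log2 ratio of Rpl3l to Rpl3 overlapped between genotypes on the row of Rpl3 alone, with a highest WT value of 2.23 and a lowest B3AR-Tg value of 2.15. With the copies of Rpl3 added, a pooling chosen after seeing the data, it did not overlap. It then averaged -0.63 ± 1.03 (SD, n = 8) in WT, with a highest value of 0.28, and 0.97 ± 0.39 (SD, n = 8) in B3AR-Tg animals, with a lowest value of 0.58. WT 4 and WT 8 had the lowest ratios, -1.63 and -2.76, with the most Rpl3 and the least Rpl3l of all animals. In fibroblast markers these 2 animals, at 80.8 and 98.3 CPM, were within the range of the other WT animals. In myocyte markers WT 4 had 88128 CPM and WT 8 had 63268, the lowest of all animals. In endothelial markers they had 117.0 and 125.9 CPM, and WT 8 was the highest in WT. WT 2, which had the most fibroblast marker RNA, had a ratio of -0.34. WT 1, with 66362 CPM of myocyte markers, had a ratio of -0.33. The part of the non-myocyte markers in the Rpl3 difference was not tested beyond the covariate fit, in which the Rpl3 row stood at -0.83 (adjusted p = 0.336).

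Within the genotypes, Rpl3 with its copies and Rpl3l were compared across animals on the log2 scale as 2 relations. In WT animals Pearson's r was -0.92 (exact permutation p = 0.00868, adjusted 0.0174, n = 8) and Spearman's rho -0.50 (exact permutation p = 0.216, adjusted 0.432). Without WT 4 and WT 8, r was -0.04 (exact permutation p = 0.931, n = 6), so the relation rests on those 2 animals. In B3AR-Tg animals r was -0.01 (exact permutation p = 0.988, adjusted 0.988, n = 8) and rho -0.31 (exact permutation p = 0.462, adjusted 0.462), and r was 0.09 (exact permutation p = 0.882, n = 6) without B3AR-Tg 2 and 3.

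**Figure D4:**
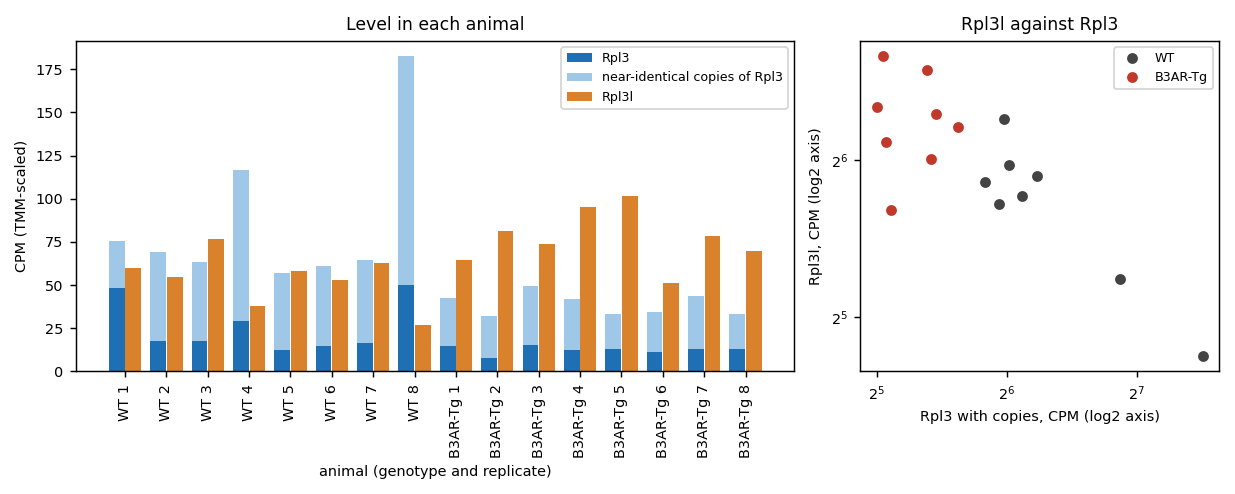
Left, TMM-scaled CPM (y axis, from 0) of Rpl3, its near-identical copies stacked on it, and Rpl3l in each animal (x axis). Right, Rpl3l against Rpl3 with copies on log2 axes: all B3AR-Tg animals are at or below 49.4 CPM of Rpl3 with copies and all WT animals at or above 56.9, with WT 4 and WT 8 at the lower right.

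No pair of paralogs passed the threshold in opposite directions, Rpl3 and Rpl3l included. Rpl22l1, which can stand in for Rpl22, was 11.2 ± 1.97 CPM (SD, n = 8) in WT and 10.6 ± 1.91 (SD, n = 8) in B3AR-Tg animals while Rpl22 fell. Its fold change was -0.07 ± 0.13 (SE, adjusted p = 0.812, edgeR), and it was 0.01 with library size as the only scaling. Rpl36a and Rpl36al were at -0.11 ± 0.09 (adjusted p = 0.529) and -0.06 ± 0.07 (adjusted p = 0.696). Rps27l, a p53-responsive paralog of Rps27, was at -0.27 ± 0.11 (SE, adjusted p = 0.188, edgeR). Rpl39, at the tunnel exit, was at -0.29 ± 0.11 (adjusted p = 0.130), and its testis paralog Rpl39l was below the count minimum. Rpl7l1, a paralog of Rpl7 that acts in ribosome assembly, was at 0.08 ± 0.10 (adjusted p = 0.723). Of 16 tested paralogs and variant members, 2 passed, Rpl3 and Rpl22 (12.5%, against 4.91% of all tested genes). The median of the 16 was -0.13.

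Rps27 itself cannot be read from its own row. Its coding sequence of 252 bases is identical to that of Rps27rt, and the rows held mean counts of 28.1 and 832.6. Rps27 was at 0.33 ± 0.23 (SE, adjusted p = 0.456, edgeR) and Rps27rt at -0.21 ± 0.10 (adjusted p = 0.254). Pooled, they were at -0.19 (adjusted p = 0.292). Rps12l1, a copy of Rps12 annotated as a pseudogene, had no count in 7 animals and up to 232 in others, and its fold change of -1.25 ± 0.93 (SE, adjusted p = 0.490, edgeR) has the widest error of the family.

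Near-identical copies affected much of the family. Copies with at least 90% identity over at least 50% of the coding sequence were found for 81 of 87 members. Matches that were members themselves, such as Rps27rt for Rps27, were not counted as copies. Each copy was given to its best-matching member. There were 1023 copies, 438 had counts, and they took 13.1% of the counts of members and copies together. For 7 members the copies held more counts than the gene, among them Rps18 (97.6% in copies), Rpl12 (94.1%), Rpl5 (90.4%), Rpl10 (86.5%), Rpl3 (69.4%) and Rpsa (52.6%). A single copy, Gm15500, had a mean count of 2341.9 against 249.9 for Rpl5.

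Pooling changed the direction of Rpl10, a 60S protein that completes the subunit late in its maturation. Its own row was 21.2 ± 6.78 CPM (SD, n = 8) in WT and 27.8 ± 9.66 (SD, n = 8) in B3AR-Tg animals, a fold change of 0.39 ± 0.21 (SE, adjusted p = 0.310, edgeR). With its copies it was 213.9 ± 25.5 and 175.2 ± 11.7 CPM (SD, n = 8 each), a fold change of -0.29 ± 0.08 (SE, adjusted p = 0.0369, edgeR). After pooling the whole family, 10 of 84 pools passed, all lower, with a median of -0.17. In that fit 4.96% of all tested features passed, and 2.91% of all tested features passed with lower values. They were Rpl3, Rpl35, Rps26, Rps12 (-0.33 ± 0.08, adjusted p = 0.0189), Rpl12 (-0.28 ± 0.07, adjusted p = 0.0279), Rpl10, Rpl27a (-0.35 ± 0.10, adjusted p = 0.0394), Rpl22, Rpl4 and Rpl21. Rpl17 missed the threshold at an adjusted p of 0.0524. The 64 members whose copies held under 5% of the counts had a median of -0.15 on their own rows. Of these 58 were below 0 and 5 passed the threshold (7.81%, against 4.91% of all tested genes). They include Rps27, because its match Rps27rt is a member and was not counted as a copy.

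**Figure D5:**
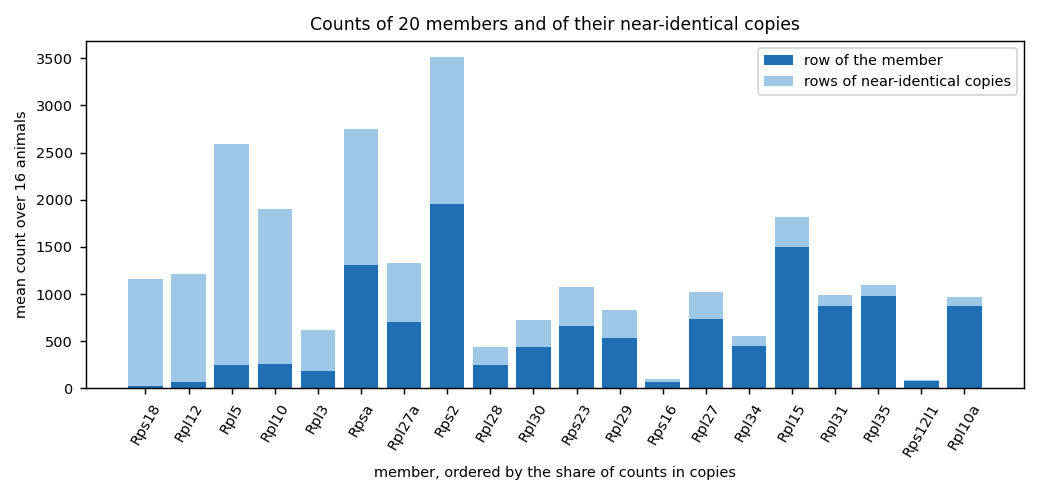
Mean count over 16 animals (y axis, from 0) in the row of each member (dark) and in the rows of its near-identical copies (light) for 20 members with large shares of counts in copies (x axis). For the 6 members on the left, from Rps18 to Rpsa, the copies hold the larger part of the bar.

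Among the 5 most abundant members by CPM per kb of transcript were Rps24 (522.1), Rplp0 (436.7), Rpl13a (352.4) and Rpl23a (349.3), against a median of 143.5 over the members. None of the 5 passed the threshold. Rps24, a 40S protein needed to process ribosomal RNA, was at -0.23 ± 0.09 (SE, adjusted p = 0.130, edgeR), Rpl13a at -0.20 ± 0.08 (adjusted p = 0.161) and Rpl23a at -0.19 ± 0.08 (adjusted p = 0.182).

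The stalk proteins Rplp0, Rplp1 and Rplp2, which recruit elongation factors to the 60S subunit, did not pass the threshold. Rplp0, at 375.8 ± 40.1 CPM (SD, n = 8) in WT and 370.0 ± 83.6 (SD, n = 8) in B3AR-Tg animals, had a fold change of -0.02 ± 0.12 (SE, adjusted p = 0.947, edgeR), whose sign changed with the animal left out. Rplp1 was at -0.15 ± 0.09 (adjusted p = 0.350) and Rplp2 at 0.04 ± 0.08 (adjusted p = 0.836).

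Members with known roles outside translation also missed the threshold. Rpl5 and Rpl11, which with 5S RNA can bind the p53 regulator Mdm2, were at -0.14 ± 0.13 (SE, adjusted p = 0.595, edgeR) and -0.22 ± 0.09 (adjusted p = 0.156). Without B3AR-Tg 3 the adjusted p of Rpl11 was 0.0448. Rps6, the target of the S6 kinases, was at -0.16 ± 0.07 (adjusted p = 0.240), Rps19, a gene of Diamond-Blackfan anaemia, at -0.15 ± 0.08 (adjusted p = 0.325), and Rpsa, also known as a laminin receptor, at -0.22 ± 0.14 (adjusted p = 0.396). Of the other members above 0, Rps2 was at 0.16 ± 0.22 (adjusted p = 0.733) and Rps4l, annotated as a pseudogene, at 0.22 ± 0.27 (adjusted p = 0.707). Rpl41 was at 0.02 ± 0.10 (adjusted p = 0.939) and Rps18 at 0.01 ± 0.27 (adjusted p = 0.996). The row of Rps18 held a mean count of 27.5, and with its copies Rps18 was at -0.19 (adjusted p = 0.211, edgeR on the pooled table). With the non-myocyte covariate Rpl41 was at -0.16 (adjusted p = 0.623).

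Rack1 and Fau, ribosomal protein genes with other names, did not pass. Rack1, a scaffold on the 40S subunit, was at -0.12 ± 0.07 (SE, adjusted p = 0.371, edgeR) and Fau, which encodes a 40S protein fused to a ubiquitin-like one, at -0.09 ± 0.09 (adjusted p = 0.585).

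The promoters of the members were read from a RefSeq table on GRCm38.p6, which held 65 of the 87 members in 77 windows from 250 bases before to 50 after a start site. A run of at least 5 pyrimidines that began with C within 5 bases of the start, a simple stand-in for the TOP motif searched on the transcribed strand, was present in 41.6% of these windows and in 18.3% of all 32851 windows of the table. Rpl35 and Rps26, the members with the smallest p-values, are shown with that run in capitals. Rpl4, the member whose genotypes separated, had no run that began within 5 bases of its annotated start. Its sequence holds a pyrimidine stretch that begins upstream of the searched bases. The search therefore cannot show whether Rpl4 has a TOP motif. The 130 bases run from 100 before the start to 30 from it on.
Rpl35, GRCm38.p6 chr2:39005102-39005231, minus strand: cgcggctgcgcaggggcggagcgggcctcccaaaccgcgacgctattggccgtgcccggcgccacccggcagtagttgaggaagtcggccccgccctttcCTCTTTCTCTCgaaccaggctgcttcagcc
Rps26, GRCm38.p6 chr10:128626477-128626606, minus strand: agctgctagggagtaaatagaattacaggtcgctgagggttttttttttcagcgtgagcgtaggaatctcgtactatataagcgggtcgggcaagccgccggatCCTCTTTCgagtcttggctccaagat
Rpl4, GRCm38.p6 chr9:64173287-64173416, plus strand: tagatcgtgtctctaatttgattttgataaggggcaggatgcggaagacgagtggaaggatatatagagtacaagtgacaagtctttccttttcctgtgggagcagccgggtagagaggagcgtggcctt

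Members with and without the run had similar medians, and the difference was not tested. For genes with several windows, only the window listed last entered this split. Members such as Rps24 and Rps27l, with a run in another window, therefore counted as without one. The split also depends on where each start is annotated. The median was -0.16 over 26 members with a run, of which 22 were below 0 and 2 passed (7.69%). It was -0.15 over 39 members without one, of which 35 were below 0 and 2 passed (5.13%). Over all tested genes 4.91% passed. Searched on both strands, CCGGAAG was present in 33.8% of the members' windows and 8.86% of all windows, GGGCGG in 59.7% and 35.7%, CACGTG in 10.4% and 7.15%, and TATAAA in 9.09% and 13.6%. A match of letters is a description and not a binding site.

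Other lists of ribosome making and translation had medians nearer 0 than the members. Log2 fold changes were below 0 for 62.5% of tested assembly factors, 76.5% of RNA polymerase I genes and 62.9% of initiation factors. For elongation and release factors the share was 86.7%, and for regulators of mTORC1 and TOP translation 36.4%. The share was 89.7% of the members and 48.9% of all tested genes. Of 80 tested ribosome assembly factors 3 fell (3.75%) and none rose, with a median of -0.05. Over all tested genes 2.88% were called lower and 2.03% higher, so these counts are near or below the background for this list, the polymerase and the initiation factors. They were Npm1, the nucleolar protein nucleophosmin (-0.32 ± 0.08, SE, adjusted p = 0.0332, edgeR), Wdr12 of the PeBoW complex that matures 60S RNA (-0.38 ± 0.11, adjusted p = 0.0460) and Utp3 of the 40S processome (-0.40 ± 0.12, adjusted p = 0.0487). None of 17 genes of RNA polymerase I, which transcribes ribosomal RNA, passed in either direction with edgeR, 2 were lower and none higher at an unadjusted p below 0.05, and the median was -0.07. Of 35 initiation factors 1 fell, Eif3a, the large scaffold subunit of eIF3 (-0.36 ± 0.09, adjusted p = 0.0236), and the median was -0.07.

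Among 15 elongation and release factors 2 fell (13.3%, against 2.88% of all tested genes) and the median was -0.10. Eef1a1, which brings aminoacyl-tRNA to the ribosome, had a median of 186.7 CPM (137.5 to 395.5) in WT and 110.1 CPM (59.3 to 151.2) in B3AR-Tg animals. Its fold change was -0.97 ± 0.21 (SE, adjusted p = 0.0135, edgeR), and its own copies were not pooled here. Its muscle paralog Eef1a2 was more abundant, with a median of 562.8 CPM in WT and 514.4 in B3AR-Tg animals, and was at -0.08 ± 0.07 (adjusted p = 0.579). Abce1, which recycles ribosomes, fell by 0.28 on the log2 scale (adjusted p = 0.0282, edgeR).

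The regulators of mTORC1 and TOP translation went both ways, with a median of 0.07 over 33 tested genes. Of these 3 passed (9.09%), 2 higher and 1 lower, against 4.91% of all tested genes. Castor2, a paralog of the arginine sensor of mTORC1, rose from 6.97 ± 1.70 to 14.2 ± 4.00 CPM (SD, n = 8 each), a fold change of 1.02 ± 0.18 (SE, adjusted p = 0.00488, edgeR). Akt2, a kinase upstream of mTORC1, rose by 0.32 ± 0.08 (adjusted p = 0.0192), and Eif4ebp1, a repressor of the cap-binding protein, fell by 0.38 on the log2 scale (adjusted p = 0.0362). Mtor was at 0.08 ± 0.09 (adjusted p = 0.634), Larp1 at 0.19 ± 0.11 (adjusted p = 0.348) and Myc, which drives ribosome genes, at 0.43 ± 0.26 (adjusted p = 0.387).

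The proteins of the mitochondrial ribosome, which translates the mitochondrial genome, were centred on 0. Of 78 tested genes 37 were below 0, the median was 0.00, 1 fell (Mrps27, -0.31 ± 0.08, SE, adjusted p = 0.0341, edgeR) and 1 rose (Mrpl14, 0.47 ± 0.13, adjusted p = 0.0328). Passing genes made up 2.56% of this list and 4.91% of all tested genes. The difference between the cytosolic and the mitochondrial family was not tested.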

How the data were processed

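The authors deposited one table of whole-number counts per gene, 1 column per animal, with no normalization. Salmon and the build GRCm39 are named in the submitters' processing notes, without a version; how reads matching several genes were assigned is not given in the sources used here. Counts were tested with edgeR 4.0.16 in R 4.3.3 (filterByExpr, minimum count 10 and total 15; TMM scaling; genotype as the one term; quasi-likelihood F test, two-sided; Benjamini-Hochberg adjustment over 10945 genes; threshold 0.05). The fit was tested on simulated data. Limma 3.58.1 and DESeq2 1.42.0 were alternatives, and permutation tests were two-sided and exact. Near-identical copies were found with BLAST 2.17.0, with the members' coding sequences searched against GENCODE M21 transcripts. For members without a coding sequence the whole transcript was searched. Copies had to be matched over at least 50% of their own length. CPM values are TMM-scaled. The members and all lists were chosen with earlier results of these data known. Named were members past the threshold, the 6 with the smallest p in each direction, the 5 highest per kb, fixed paralogs and well-known members, and up to 4 genes past the threshold per related list; other members and Eef1a2, Mtor, Larp1 and Myc were added after their values were seen. Same-numbered animals of the genotypes did not deviate together. A few members and related genes are counted in the totals and not reported by name here.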

Additional observations from a re-analysis of the deposited data

Results flagged for a closer look

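In groups of 8 animals, 86 searches (named members on the log2(CPM + 0.1) scale, the share of counts, the mean of the members, Rpl3 with its copies and its ratio to Rpl3l, each per genotype) looked for an animal far from the rest of its group. Chance gives about 1 in 20, or 4.3, and 4 were found. The share of counts in the members was 1.09% in B3AR-Tg 3, against 0.840% to 0.950% in the other B3AR-Tg animals. Rpl11 was 108.7 CPM in B3AR-Tg 3, against 76.6 to 88.6 in the others. Rpl3 was 7.95 CPM in B3AR-Tg 2, against 11.4 to 15.3. Rplp1 was 121.4 CPM in WT 2, against 149.2 to 175.9.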

How the results depend on the processing

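The median log2 fold change of the members, -0.15, was below 0 in every alternative run. It was -0.28 with the non-myocyte covariate, -0.07 with library size as the only scaling (median of all tested genes 0.08) and -0.11 with offsets for GC content and length. The number of members past the threshold, 7, changed by more than 1.5 times in several alternatives: it was 4 with library size as the only scaling (3 lower, 1 higher; 67.7% of all calls were then higher, against 41.3%), 3 with no low-count filter, 12 with DESeq2 (11 lower, 1 higher), 12 with limma voom and sample weights, 1 with the non-myocyte covariate, 3 with GC and length offsets, 12 at an adjusted p of 0.1 and 1 at 0.01. It ranged from 2 to 12 when 1 animal was left out. Calls over all tested genes also moved, from 537 of 10945 in the main fit. They were 511 with library size only, 475 of 20301 with no low-count filter, 840 of 13113 with DESeq2 and 706 with voom. They were 25 with the covariate, 604 with GC and length offsets, 230 with the replicate number as a block and 301 with block and offsets. With 1 animal left out they ranged from 272 to 675. The cause was not tested. The share of counts differed by -0.05 percentage points, by -0.15 with mitochondrial genes and Gm20594 left out, and by -0.07 to -0.04 when 1 animal was left out. Replicate numbers did not pair the animals (correlations of same-numbered animals -0.22 to 0.09, 0 of 8 best with their own number). With the replicate number as a block, 2 members passed, and with the block and the offsets 1 did. Pooling was chosen after seeing the data. Among the members named in the text, those that changed direction were short of the threshold on their own row; the others were not searched. Rpl10 went to -0.29 with named pseudogenes and -0.29 with all copies, Rps27 to -0.19 pooled, Rps18 to -0.195 with named pseudogenes, -0.192 with all copies, -0.0024 with upper quartile scaling, -0.097 with voom and -0.024 with the replicate block, Rpl41 to -0.015 with voom, and Rpl22l1 to 0.011 with library size only, 0.036 with offsets and 0.024 with block and offsets. Rpl36al went to 0.021 and Rplp0 to 0.049 with library size only. With the covariate Rps4l went to -0.25, Rpl7l1 to -0.089, Rps2 to -0.19, Rplp2 to -0.067, Rps18 to -0.11, Rpl41 to -0.16 and Rpl12 to 0.00043. With 1 animal left out Rps4l ranged from -0.0066 to 0.35, Rplp0 from -0.11 to 0.033, Rps18 from -0.14 to 0.12 and Rpl41 from -0.054 to 0.066. The rows of Rps18 and Rps27 held mean counts of only 27.5 and 28.1. The copies of Rps18 held 1136.3, and Rps27rt, identical to Rps27 in coding sequence, held 832.6.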
